A study of Mus musculus with 8 samples.

Results

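The expression of 10 genes that mark deep-layer neurons of the cerebral cortex was described in 8 RNA-seq libraries of mouse brain. The genes were Pcp4, Foxp2, Tle4, Fezf2, Bcl11b, Tbr1, Cplx3, Nxph4, Ntsr1 and Etv1, taken from a fixed list of names and found by symbol in both deposited tables, which list 54532 and 28229 genes. All 10 were counted in every library and all 10 passed the filter on low counts, as did 17581 genes in the first table and 17565 in the second. The study asked how photothrombotic stroke followed by restraint stress changes the brain, and what an inhibitor of histone deacetylases changes in such mice.

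All mice were of the C57BL/6 strain and were sampled on day 21, and per the study's methods they were male. The methods give a body weight, and an age only for the mice of a behaviour test; the age of the mice behind these libraries was not stated. The RS group, 2 libraries labelled cortex, had restraint stress without stroke. The PTS + RS group, also 2 libraries labelled cortex, had a photothrombotic stroke, in which Rose Bengal dye and light through the skull clot the vessels of a patch of cortex, and the same restraint. The RGFP109 group and the NaCl group, 2 libraries each, were both PTS + RS mice. RGFP109, an inhibitor selective for class I histone deacetylases, was injected under the skin once daily at 60 mg/kg, and NaCl is the label of its control. The study's methods give 2 weeks of dosing, and the legend of one of its figures gives 21 days. In both of these groups replicate 1 is labelled cortex and replicate 2 amygdala. Unstressed mice and stroke mice without restraint were not analysed here. Whether a library holds 1 mouse or a pool is not stated, so the p-values measure only the spread between these libraries.

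Neurons of cortical layers 5, 6 and 6b send the cortex's output to the spinal cord, brainstem, striatum and thalamus. Their identity is set during development by transcription factors that repress one another's programmes, among them FEZF2 and BCL11B for layer 5 neurons that project below the cortex and TBR1 for layer 6 neurons that project to the thalamus. In the adult these factors and a set of receptors and synaptic proteins stay on in the same neurons and are used to tell the layers apart. Several of the genes are also used elsewhere: PCP4, FOXP2 and BCL11B are abundant in striatal neurons, and PCP4 also in the olfactory bulb and the hippocampus. In bulk tissue, fewer cells of a type and less RNA per cell cannot be told apart.

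The libraries held 15902013 to 21712033 counts on genes. Markers of cortical excitatory neurons (7 genes, Slc17a7 and Camk2a among them) summed to 4504 to 6150 CPM (counts scaled to a common library size) in 7 libraries and to 2312 CPM in NaCl replicate 1. In that library, which is labelled cortex, 10 olfactory bulb markers summed to 1219 CPM, against 12.4 to 17.5 CPM in the other 7. Its levels of Cdhr1, of the olfactory bulb's output neurons, and of Omp, of olfactory sensory axons, were 533.9 and 116 CPM. Markers of the choroid plexus, chiefly Ttr, summed to 1528 to 3854 CPM in RGFP109 replicate 1, PTS + RS replicate 1 and both RS libraries, and to 14.4 to 48.5 CPM in the other 4. Those of the hippocampus, 8 genes, summed to 613 to 941 CPM in RGFP109 replicate 1 and all PTS + RS and RS libraries. In NaCl replicate 1 and the amygdala-labelled libraries they summed to 198 to 288 CPM. The 2 libraries labelled amygdala had 1388 and 1537 CPM of 12 striatal markers, against 177 to 261 CPM elsewhere. Sim1 and Otp, transcription factors of the medial amygdala, were at most 0.187 CPM in these libraries and at most 0.175 CPM elsewhere. Of 12 amygdala markers 10 passed the filter. Against the cortex-labelled libraries of the same table, 9 of the 10 were higher and 1 lower, with a median log2 fold change of 0.65. None passed the threshold, nor did any other of the 17565 genes tested. The 12 markers summed to 164.5 and 177.7 CPM in the amygdala-labelled libraries. They summed to 162 CPM in RGFP109 replicate 1, 88.8 CPM in NaCl replicate 1 and 144.5 to 163.9 CPM in the PTS + RS and RS libraries. The labels are used below as they stand.

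**Figure D1:**
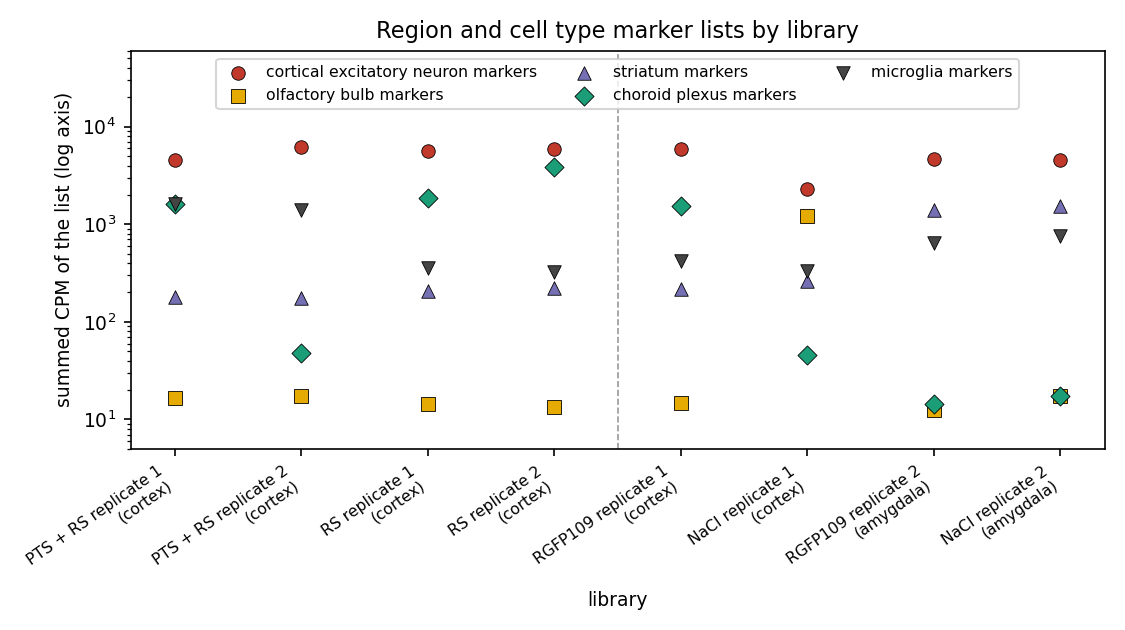
Summed CPM (log axis) of 5 lists of region and cell type markers in each of the 8 libraries, with the labelled tissue in brackets; each point is the sum of 1 list in 1 library and the dashed line parts the 2 tables, which were normalized separately. Olfactory bulb markers reached 1219 CPM in NaCl replicate 1 alone, and microglial markers were at 1631 and 1397 CPM in the PTS + RS libraries against 356 and 323 CPM in the RS libraries.

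Among the 10 genes only Pcp4 differed at an adjusted p under 0.05 in edgeR's test between the PTS + RS and RS libraries, all labelled cortex. PCP4, also called PEP-19, is a small protein that binds calmodulin and speeds its exchange of calcium. The gene (ENSMUSG00000090223) lies at chr16:96467606-96525793 on the plus strand of GRCm38. It had 35 and 41 counts in the PTS + RS libraries and 198 and 183 in the RS libraries, or 2.04 and 2.45 CPM against 10.9 and 11.6 CPM. Both PTS + RS libraries thus lay far below both RS libraries, and the gap between groups was larger than the gap inside either. Mean levels were 2.25 ± 0.29 CPM (SD, n = 2) and 11.2 ± 0.439 CPM (SD, n = 2). Pcp4 fell by 2.32 on the log2 scale (SE 0.207), a level 4.99-fold lower in PTS + RS, with an adjusted p of 0.0021 in edgeR's quasi-likelihood test.

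Pcp4 was 1 of 16 genes called lower in PTS + RS, the threshold being a log2 fold change of 1 or more in size together with an adjusted p under 0.05. That is 0.091% of the genes tested, and 2.21% were called when both directions are counted, 373 of the 389 being higher. By log2 fold change Pcp4 was in place 5 of the 16, and by p in place 1. Leaving out each library in turn gave log2 fold changes from -2.46 to -2.19. The value of -2.46 was that without PTS + RS replicate 2, the library of that group with few choroid plexus markers, which leaves 1 library in the group and takes the spread from the RS pair.

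Other marker lists moved with the groups as well. All 12 microglial markers rose past the threshold, with a median log2 fold change of 2.35, against -0.0015 over all genes tested. Astrocyte markers were higher in 8 of 8, with a median of 0.48, and 2 passed the threshold. Choroid plexus markers were lower in 10 of 10, with a median of -1.87, and none passed the test. Their sum was low in PTS + RS replicate 2 alone, at 48.5 CPM. It was 1632 CPM in PTS + RS replicate 1 and 1848 and 3854 CPM in RS. Csf1r, the receptor for colony-stimulating factor, was at 307.6 and 243 CPM in PTS + RS and 91.88 and 78.18 CPM in RS. The 10 general neuronal markers, from Rbfox3 to Eno2, had a median log2 fold change of -0.17 and none passed. Striatal markers summed to 179.8 and 177.4 CPM in PTS + RS and to 207.1 and 224.9 CPM in RS, and those of the hippocampus to 677.6 and 876.2 CPM against 878.1 and 941.1 CPM. Each PTS + RS sum lay below both RS sums, and each list had 1 gene at an adjusted p under 0.05 and none past the threshold. The median log2 fold change was -0.17 for the striatal and -0.19 for the hippocampal list. Sums of the general neuronal markers also lay apart, at 6217 and 6637 CPM against 7075 and 6700 CPM. So did those of inhibitory neurons, at 740.6 and 801.2 CPM against 811.5 and 809.3 CPM. Cortical excitatory sums overlapped, at 4513 and 6150 CPM against 5623 and 5872 CPM. Of all genes tested, 50.2% did not overlap. The part of these other cells and regions in the fall of Pcp4 was not tested.

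The Pcp4 locus carries a second gene model. In GENCODE release M21 a transcript of Igsf5 runs through the locus on the same strand and shares 243 exonic bases with Pcp4, and reads in those bases may have been counted for neither gene. Of 2 rows named Igsf5 in the first table, the overlapping gene had 0 counts in all 4 libraries and the other at most 5. The 250 bases upstream of the annotated start of Pcp4, taken from RefSeq on GRCm38.p6, lie within the span of that overlapping Igsf5 gene. They are printed because Pcp4 is the gene that changed, beside the same stretch of Ntsr1 and Cplx3, 2 genes whose levels moved with the replicate number (given further on). Capitals mark GGTGTG, the core of the site bound by T-box factors such as TBR1.

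The stretches are chr16:96467356-96467605 on the plus strand for Pcp4, chr2:180499726-180499975 on the plus strand for Ntsr1 and chr9:57606282-57606531 on the minus strand for Cplx3, each written 5′ to 3′ along its gene.
Pcp4: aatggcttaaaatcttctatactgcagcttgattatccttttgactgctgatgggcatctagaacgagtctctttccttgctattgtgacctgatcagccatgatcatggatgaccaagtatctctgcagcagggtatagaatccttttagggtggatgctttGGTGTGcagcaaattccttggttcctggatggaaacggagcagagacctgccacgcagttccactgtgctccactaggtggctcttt
Ntsr1: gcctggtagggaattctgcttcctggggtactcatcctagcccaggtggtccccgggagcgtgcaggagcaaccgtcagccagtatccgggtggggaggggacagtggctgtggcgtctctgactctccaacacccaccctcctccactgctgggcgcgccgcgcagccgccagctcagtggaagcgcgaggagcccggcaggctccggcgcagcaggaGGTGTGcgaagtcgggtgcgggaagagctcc
Cplx3: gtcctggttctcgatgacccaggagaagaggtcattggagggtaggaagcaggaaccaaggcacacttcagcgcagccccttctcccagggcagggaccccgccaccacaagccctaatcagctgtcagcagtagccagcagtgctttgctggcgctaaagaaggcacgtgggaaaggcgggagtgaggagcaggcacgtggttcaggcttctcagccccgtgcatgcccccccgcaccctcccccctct

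The core stood 87 bases before the start of Pcp4 and 31 bases before that of Ntsr1, both on the strand printed, and not in the Cplx3 stretch on either strand. Of the 10 genes 8 had an entry, and Pcp4 and Ntsr1 were the 2 with the core on either strand. Over all 32851 promoters of the same length it was present in 16.3%. A match of letters is a description of the sequence and not evidence of binding.

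None of the transcription factors, nor their co-repressor, differed at an adjusted p under 0.05 in edgeR's fit to all PTS + RS and RS libraries. Fezf2, the zinc-finger factor of layer 5 projection neurons (chr14:12342094-12348189, minus strand), was at 45.4 and 53.0 CPM in PTS + RS and at 48.8 and 48.7 CPM in RS. The log2 fold change was 0.013 (SE 0.103, edgeR adjusted p 0.967). Bcl11b, which encodes CTIP2 (chr12:107910403-108003602, minus strand), was at 131 and 192 CPM against 169 and 197 CPM. Its log2 fold change of -0.18 (SE 0.173) was the lowest after that of Pcp4, and its groups overlapped.

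Tbr1, the T-box factor of layer 6 (chr2:61802930-61814114, plus strand), was at 71.5 and 55.6 CPM in PTS + RS and at 66.7 and 55.4 CPM in RS. Each PTS + RS library lay near the RS library of the same number, and the log2 fold change was 0.058 (SE 0.142). Etv1, an ETS factor of layer 5 also known as ER81 (chr12:38779380-38870484, plus strand), was at 129 and 120 CPM against 139 and 134 CPM. These groups did not overlap, but the difference was small, at -0.13 on the log2 scale (SE 0.0765, edgeR adjusted p 0.417). Non-overlap is common at 2 libraries a group: it held for 2 of the 10 genes, Pcp4 and Etv1, and for 50.2% of all genes tested.

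Foxp2, a forkhead factor of corticothalamic neurons (chr6:14901349-15441977, plus strand), was scarce. It had 57 and 21 counts in PTS + RS and 53 and 24 in RS, or 3.33 and 1.26 CPM against 2.92 and 1.51 CPM. The log2 fold change was 0.038 with an SE of 0.519, the widest of the 10. A difference well above the size seen could thus have gone undetected at this depth and spread. Tle4, a co-repressor of the Groucho family that marks the same neurons (chr19:14448072-14598051, minus strand), was at 71.6 and 63.3 CPM against 63.6 and 60.9 CPM. Its log2 fold change was 0.12 (SE 0.0916, edgeR adjusted p 0.569).

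**Figure D2:**
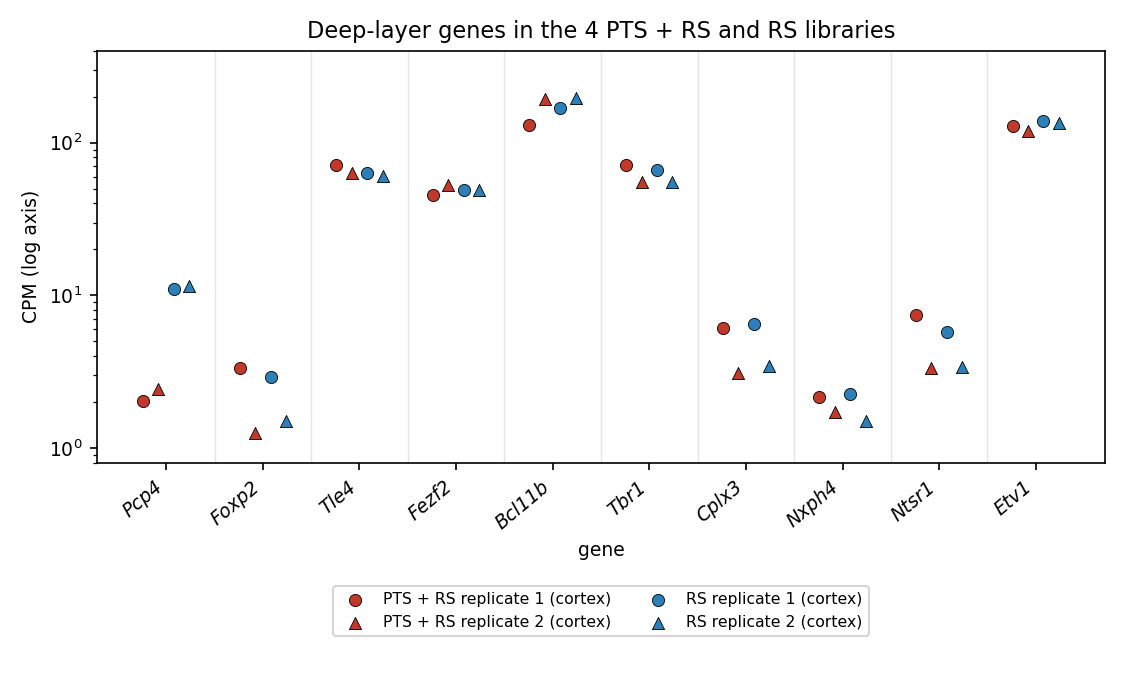
CPM (log axis) of the 10 deep-layer genes in the 2 PTS + RS libraries (red) and the 2 RS libraries (blue), circles for replicate 1 and triangles for replicate 2; each point is 1 library. Pcp4 lies at 2.04 and 2.45 CPM in PTS + RS and at 10.9 and 11.6 CPM in RS, while Foxp2, Cplx3 and Ntsr1 are higher in the circles than in the triangles in both colours.

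The receptor and synaptic genes of layer 6 and 6b differed more between replicates than between groups. Ntsr1 encodes a receptor for the peptide neurotensin and is the usual driver gene for corticothalamic neurons (chr2:180499976-180544980, plus strand). It was at 7.47 and 3.35 CPM in PTS + RS and at 5.74 and 3.41 CPM in RS, and its log2 fold change of 0.24 (SE 0.414, edgeR adjusted p 0.821) was the highest of the 10. Cplx3, a complexin that binds the vesicle fusion machinery and marks subplate-derived layer 6b cells (chr9:57599992-57606281, minus strand), was at 6.13 and 3.11 CPM against 6.51 and 3.47 CPM. Nxph4, a secreted ligand of neurexins and also a layer 6b gene (chr10:127525473-127534559, minus strand), was at 2.16 and 1.74 CPM against 2.26 and 1.51 CPM. Replicate 1 was the higher library of each of these genes in both groups.

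On the log2 scale, replicate 1 minus replicate 2 of Foxp2 was 1.33 in PTS + RS and 0.90 in RS. For Ntsr1 the differences were 1.13 and 0.73, and for Cplx3 they were 0.95 and 0.89. These 3 of the 10 genes were thus at least 0.5 higher in replicate 1 in both groups, as were 2.22% of all genes tested and 1 of 29 further deep-layer genes. Bcl11b went the other way, at -0.55 and -0.22. Pcp4 differed little between replicates, at -0.25 and -0.079. For 7 of the 10 genes replicate 1 was higher in both groups, as it was for 15 of 29 further deep-layer genes, 9 of 14 upper-layer genes and 27.6% of all genes. In replicate 2 of both groups Ntsr1 and Cplx3 had only 52 to 56 counts, and Foxp2 21 and 24. These differences are a description of 4 libraries, and no test was made of them. What the replicate numbers stand for is not given in the sources used here.

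**Figure D3:**
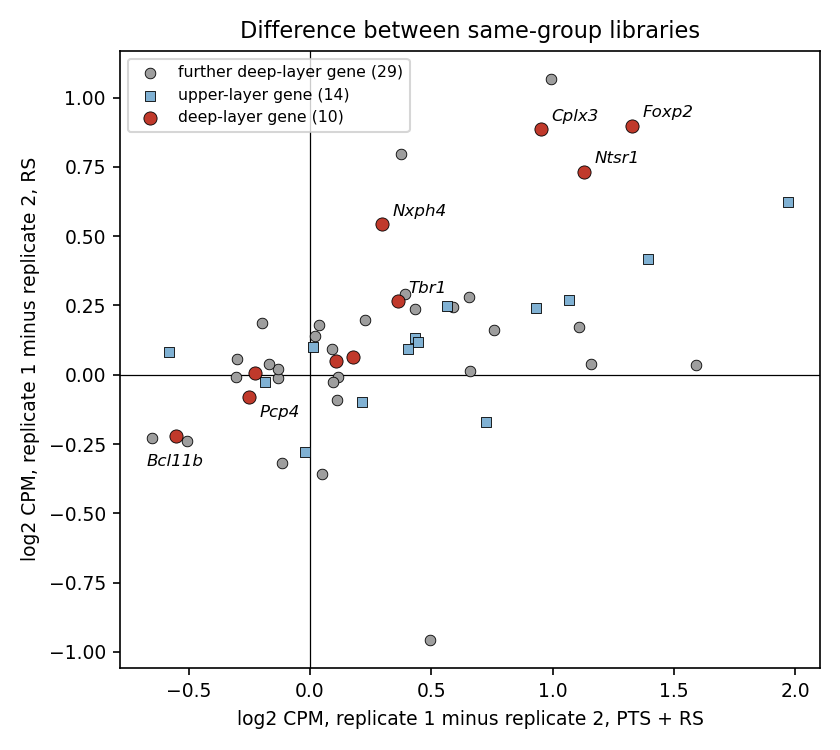
Difference in log2 CPM between replicate 1 and replicate 2 in PTS + RS (x axis) and in RS (y axis), for the 10 deep-layer genes (red), 29 further deep-layer genes (grey) and 14 upper-layer genes (blue squares); each point is 1 gene. Foxp2, Ntsr1 and Cplx3 lie at the upper right, with 0.95 to 1.33 on the x axis, and Bcl11b at the lower left.

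The median log2 fold change of the 10 genes was 0.025, and 0.038 without Pcp4, beside -0.0015 over all genes. A further list is not independent of these data, since it was written from general knowledge of the layers with earlier results known. It held 30 deep-layer genes. Of these, 29 passed the filter, with a median of -0.025, and none passed the threshold. Whatever the fold, 1 of the 29 had an adjusted p under 0.05, as did 3.55% of all genes. This was Pou3f1, a POU-domain factor also known as SCIP that is used as a layer 5 marker, at 43.2 and 61.46 CPM in PTS + RS and 85.92 and 101.5 CPM in RS. Pou3f1 fell by 0.84 on the log2 scale (SE 0.166, edgeR adjusted p 0.0446). The call was lost with limma on log2(FPKM + 1), at an adjusted p of 0.106, with limma on log2(FPKM + 0.1), at 0.103, and without RS replicate 2 in edgeR, at an adjusted p of 0.0675.

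By subgroup, the 10 further corticothalamic genes had a median of 0.094, the 12 layer 5 genes -0.12, the 5 layer 6b genes -0.053 and the 2 tested intratelencephalic layer 6 genes 0.12. The lowest and the highest log2 fold changes on the further list were those of Pou3f1 and of Sla, at 0.74. The 14 upper-layer genes had a median of 0.20, and none was called at an adjusted p under 0.05. The sums of the 10 genes were 470 and 496 CPM in PTS + RS and 515.7 and 518 CPM in RS. Without Pcp4 the sums were 467.9 and 493.6 CPM against 504.7 and 506.5 CPM.

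**Figure D4:**
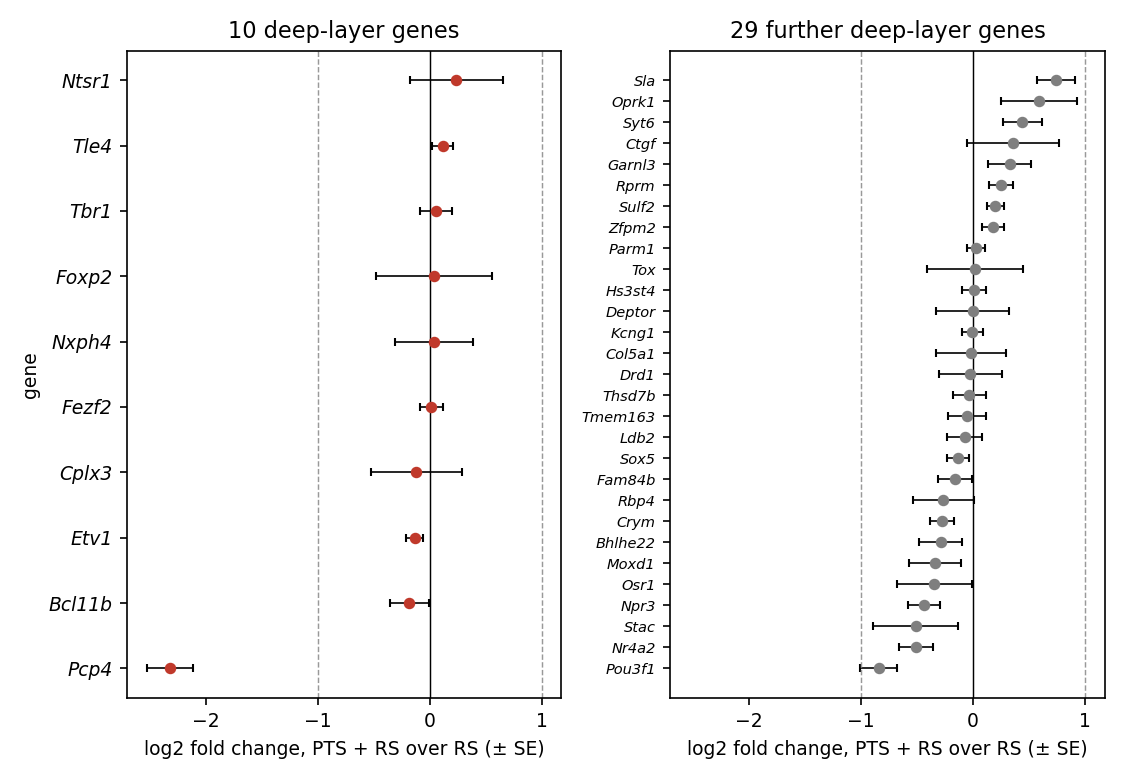
Log2 fold change of PTS + RS over RS with its SE (bars) from edgeR's quasi-likelihood fit, for the 10 deep-layer genes (left) and 29 further deep-layer genes (right); dashed lines mark a log2 fold change of 1 in size. Pcp4 lies at -2.32, and the other 9 genes on the left lie between -0.18 and 0.24.

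Compared per length, the genes spanned a wide range. In the deposited FPKM (counts scaled by gene length and library size), the medians over the 4 PTS + RS and RS libraries ran from 22.1 for Bcl11b through 15.9 for Fezf2, 13.6 for Tle4, 11.1 for Tbr1 and 9.86 for Etv1 down to 6.48 for Pcp4. Below these came Cplx3 at 1.61, Ntsr1 at 1.16, Nxph4 at 1.15 and Foxp2 at 0.135 FPKM. Neighbours in this order overlapped across the 4 libraries in most cases: Bcl11b (15.99 to 24.2 FPKM) with Fezf2 (14.7 to 17.3), Fezf2 with Tle4 (13.1 to 15.3), and Tbr1 (10.1 to 12.9) with Etv1 (8.99 to 10.4). Tle4 lay just above Tbr1 in all 4 libraries. Pcp4, at 1.97 to 11.2 FPKM, spanned the gap between Etv1 and the genes below, and Cplx3 (1.05 to 2.19), Ntsr1 (0.851 to 1.89) and Nxph4 (0.901 to 1.34) overlapped one another. Foxp2 stood apart at the bottom, at 0.0765 to 0.202 FPKM.

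The second table compares RGFP109 with NaCl in PTS + RS mice. The main fit had no tissue term. The spread within each group thus held any difference between its cortex-labelled and its amygdala-labelled library. No gene passed the threshold in edgeR's quasi-likelihood test, 0% of 17565, and none by DESeq2 or by limma on FPKM. At an unadjusted p under 0.05, edgeR had 88 genes higher and 118 lower, 1.17% of those tested. Of the 10 genes 1 was among these, Nxph4. It was at 2.98 and 5.33 CPM with RGFP109 and at 28.2 and 7.77 CPM with NaCl, where the first value of each pair is the library labelled cortex. The highest of the 4 values belonged to NaCl replicate 1, and the log2 fold change of Nxph4 was -2.11 (SE 0.704, edgeR unadjusted p 0.0317, adjusted p 1).

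Libraries of the 2 groups did not overlap for 3 of the 10 genes, Nxph4, Pcp4 and Tle4, and for 26.6% of all genes tested. Pcp4 was at 9.83 and 27.3 CPM with RGFP109 and at 31.9 and 37.0 CPM with NaCl. Its log2 fold change was -0.89 (SE 0.499). Tle4 was at 63.3 and 60.6 CPM against 49.8 and 55.1 CPM, a log2 fold change of 0.24 (SE 0.16). All 10 genes had an edgeR adjusted p of 1, with log2 fold changes from -2.11 to 0.96 and a median of 0.084, beside -0.016 over all genes. Several of these values moved with the fit: with a library left out Fezf2 ranged from 0.089 to 3.42, Pcp4 from -1.81 to -0.34 and Nxph4 from -2.74 to -0.90, and with the replicate block Fezf2 was at 1.64 and Foxp2 went from -0.39 to -1.23.

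**Figure D5:**
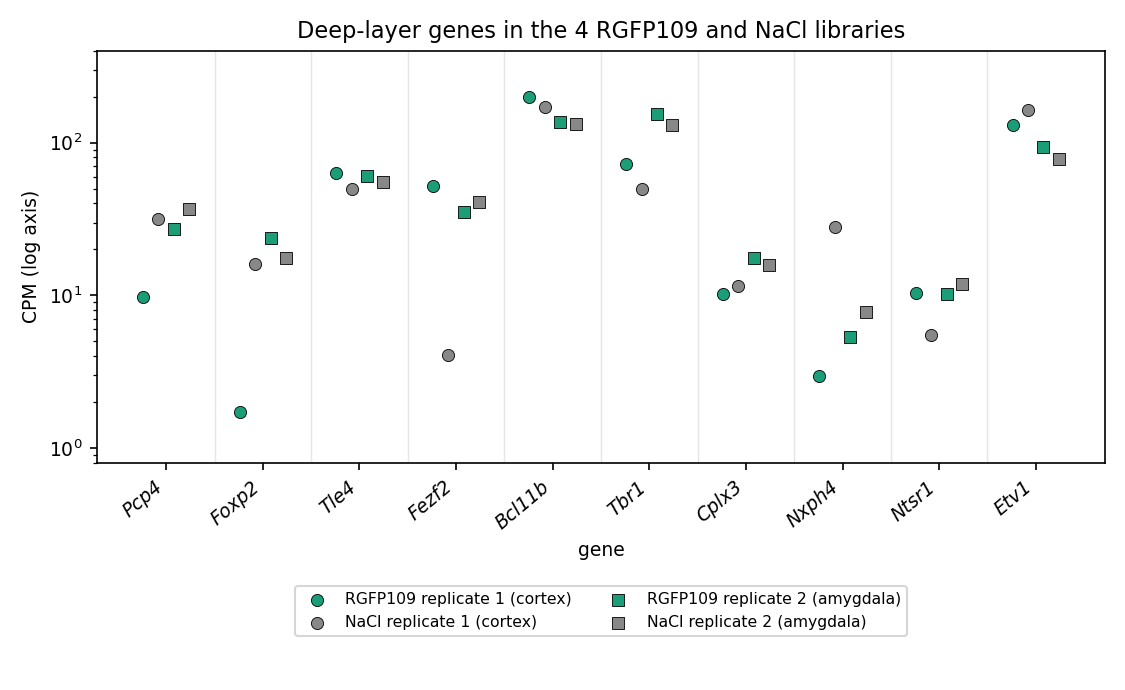
CPM (log axis) of the 10 deep-layer genes in the RGFP109 (green) and NaCl (grey) libraries, circles for those labelled cortex and squares for those labelled amygdala; each point is 1 library. The 2 squares of each gene lie close together, while the circles lie far apart for Pcp4, Foxp2, Fezf2 and Nxph4.

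The groups lay further apart in the libraries labelled cortex than in those labelled amygdala. Fezf2 was at 52.0 CPM with RGFP109 and 4.10 CPM with NaCl in the cortex-labelled pair, a log2 difference of 3.63, and at 35.3 and 40.8 CPM in the amygdala-labelled pair, a log2 difference of -0.21. Foxp2 was at 1.71 and 16.1 CPM in the former pair, a log2 difference of -3.15, and at 23.7 and 17.6 CPM in the latter. NaCl replicate 1 thus held the lowest Fezf2 level of the table, and also the lowest of all 8 libraries, though the tables were normalized separately.

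For Nxph4 the log2 difference was -3.20 in the cortex-labelled pair and -0.54 in the amygdala-labelled pair, and for Pcp4 it was -1.69 and -0.44. In the cortex-labelled pair 4 of the 10 genes, Fezf2, Foxp2, Nxph4 and Pcp4, differed by at least 1 in size on the log2 scale, as did 15.5% of all genes tested and 18 of the 30 further deep-layer genes. In the amygdala-labelled pair none of the 10 did, with differences from -0.54 to 0.43, and 2.84% of all genes did. Each pair is 1 library against 1, so these differences have no replicate check.

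NaCl replicate 1, a member of the cortex-labelled pair, is the library with olfactory bulb markers. Beside its 1219 CPM of these markers, its 8 inhibitory neuron markers summed to 2338 CPM, against 740.6 to 980.4 CPM in the other 7 libraries, with Gad1, an enzyme that makes GABA, at 1572 CPM. Its cortical excitatory markers were at 2312 CPM, against 5869 CPM in RGFP109 replicate 1. Choroid plexus markers went the other way, at 45.5 CPM in NaCl replicate 1 and 1528 CPM in RGFP109 replicate 1. The part of these regions in the values of the deep-layer genes was not tested. Without NaCl replicate 1, the only NaCl library left is labelled amygdala, while RGFP109 keeps both tissues. The log2 fold change of RGFP109 over NaCl was then -0.90 for Nxph4 and 0.089 for Fezf2, against -2.11 and 0.96 with all libraries. For Pcp4 and Foxp2 it was -0.99 and -0.45, against -0.89 and -0.39.

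The other members differed less in that pair. Bcl11b was at 201 CPM with RGFP109 and 171 CPM with NaCl in the cortex-labelled libraries and at 137 and 133 CPM in the amygdala-labelled ones. Ntsr1 was at 10.4 and 5.52 CPM and at 10.3 and 11.8 CPM in the same order. Cplx3 was at 10.2 and 11.6 CPM and at 17.6 and 15.9 CPM. In these 3 genes, as in Tbr1, Tle4 and Etv1, the pairs differed by less than 1 on the log2 scale.

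In the further deep-layer list no gene was called, the median was 0.27 and the values ran from -2.65 for Syt6, a synaptotagmin, to 1.45 for Crym, a thyroid hormone-binding protein. Syt6 was at 225.9 CPM in NaCl replicate 1 and at 9.01 to 31.3 CPM in the other 3 libraries of the table. Crym was at 17.1 CPM in NaCl replicate 1 and at 65.7 to 224 CPM in the other 3. NaCl replicate 1 was thus the highest library of the table for Syt6 and the lowest for Crym.

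Levels of Pcp4 are set side by side across the tables, which were normalized separately and are not tested against each other. They were not low in every library of stroke mice, but these libraries also differed in labelled tissue, treatment and markers. The 2 cortex-labelled PTS + RS libraries of the first table were at 1.97 and 2.38 FPKM and the RS libraries at 10.6 and 11.2 FPKM. RGFP109 replicate 1 and NaCl replicate 1, which also came from PTS + RS mice and are labelled cortex, were at 9.57 and 30.7 FPKM. Their microglial markers summed to 422.9 and 330.1 CPM. In the first table these sums were 1631 and 1397 CPM in PTS + RS and 355.9 and 322.9 CPM in RS. Both amygdala-labelled libraries, at 26.6 and 35.9 FPKM, were higher than any cortex-labelled library but NaCl replicate 1. NaCl replicate 1 held 1219 CPM of olfactory bulb markers, and the amygdala-labelled libraries 1388 and 1537 CPM of striatal markers. The part of these regions in the Pcp4 levels was not tested. Over all 8 libraries the highest CPM was 18.1 times the lowest for Pcp4, 18.9 times for Foxp2, 18.6 times for Nxph4 and 12.9 times for Fezf2, against 1.44 times for Tle4 and 1.53 times for Bcl11b.

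The libraries labelled amygdala and cortex were compared within the RGFP109 and NaCl table, with treatment as a term. No gene passed the threshold in edgeR's quasi-likelihood test, 0% of 17565, while 1069 were higher and 538 lower at an unadjusted p under 0.05, 9.15% of those tested. DESeq2 called 154 genes higher and 53 lower, and limma on log2(FPKM + 1) called 3 higher. Of the 10 genes 2 had an unadjusted p under 0.05, Tbr1 and Etv1.

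Tbr1 was at 153.9 and 130.5 CPM in the amygdala-labelled libraries and at 72.9 and 49.9 CPM in the cortex-labelled ones, given as RGFP109 and then NaCl. Both amygdala-labelled values were above both cortex-labelled values, and above those of the separately normalized first table, 55.4 to 71.5 CPM. The log2 fold change was 1.23 (SE 0.196, edgeR unadjusted p 0.00206, adjusted p 0.341). DESeq2 gave 1.24 with an adjusted p of 0.016, past the threshold. Within each treatment amygdala minus cortex was 1.08 with RGFP109 and 1.39 with NaCl, and without NaCl replicate 1 and the treatment term the log2 fold change was 0.98.

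Etv1 was at 94.2 and 77.9 CPM in the amygdala-labelled libraries and at 131 and 164 CPM in the cortex-labelled ones. Both amygdala-labelled values were the lower, with a log2 fold change of -0.77 (SE 0.23, edgeR unadjusted p 0.0233, adjusted p 0.473). Libraries of the 2 tissues did not overlap for 5 of the 10 genes, Tbr1, Etv1, Foxp2, Cplx3 and Bcl11b, and for 44% of all genes tested. Cplx3 was 0.62 higher in amygdala-labelled libraries (SE 0.242) and Bcl11b was lower, at -0.46 (SE 0.192), neither passing the test.

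Foxp2, Fezf2, Nxph4 and Pcp4 depended on which library stood for the cortex. Amygdala minus cortex of Foxp2 was 3.71 on the log2 scale with RGFP109 and 0.13 with NaCl. For Fezf2 the differences were -0.56 and 3.28, and for Nxph4 0.81 and -1.84, so that the sign turned with the treatment. For Pcp4 they were 1.46 and 0.21. Fits that left out a library also left out the treatment term, since 3 libraries could not be fitted with both terms and keep a residual degree of freedom. Without NaCl replicate 1, with RGFP109 replicate 1 as the only cortex-labelled library and its spread assumed equal to that of the amygdala-labelled pair, 3 of the 10 genes passed the threshold in edgeR. These were Foxp2 (log2 fold change 3.60), Pcp4 (1.72) and Nxph4 (1.14), the last with the sign opposite to that of the fit to all 4 libraries. Without RGFP109 replicate 1, again with a lone cortex-labelled library and no treatment term, the number was 4, and these were Fezf2 (3.22), Tbr1 (1.52), Nxph4 (-2.11) and Ntsr1 (1.00). Nxph4 thus passed in both fits, in opposite directions.

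The median log2 fold change of the 10 genes was 0.58, beside -0.013 over all genes, and that of the 30 further deep-layer genes was 0.27, with 6 higher and 2 lower at an unadjusted p under 0.05. The 14 upper-layer genes had a median of 0.93, with 8 higher. The 12 striatal markers had a median of 2.95, and all 12 were higher at an unadjusted p under 0.05, Pde10a, a striatal phosphodiesterase, at 343 and 337.3 CPM against 97.3 and 49.0 CPM. Drd1, a dopamine receptor gene that stands on both the striatal and the further deep-layer list, was the highest of the latter, at 49.2 and 49.0 CPM against 6.66 and 4.27 CPM. Stac, an adaptor protein gene, was the lowest, at 0.794 and 0.870 CPM against 2.47 and 6.26 CPM, a log2 fold change of -2.25 (edgeR unadjusted p 0.00781, adjusted p 0.405). Of the genes also abundant in striatal neurons, Bcl11b was lower in the amygdala-labelled libraries, with a log2 fold change of -0.46. Amygdala minus cortex, with RGFP109 and then NaCl, was 3.71 and 0.13 for Foxp2 and 1.46 and 0.21 for Pcp4. The part of striatal tissue in the levels of Foxp2, Pcp4 and Bcl11b in the amygdala-labelled libraries was not tested.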

How the data were processed

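RNA-seq was performed on 8 libraries from mouse brain, mapped to groups and tissues by the sample labels. Per the study's methods, alignment by the authors to GRCm38 used STAR (2.4.0) on paired-end reads, and HTSeq (0.6.1) gave the number of reads per gene; the deposited counts are not normalized, and the deposited FPKM divide them by gene length and library size. The sample labels name a directional library kit and the methods another kit, and the strand setting of counting is not given in the sources used here. The authors also deposited size-factor-normalized columns, of which 8 hold single libraries, and their own fold changes and p-values; none was used.

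Counts were analysed in R (4.3.3) with edgeR (4.0.16): filterByExpr, TMM factors, the quasi-likelihood test and Benjamini-Hochberg adjustment over all tested genes, separately in each table. The test was two-sided, and genes were called past both limits, 0.05 for the adjusted p and 1 for the size of the log2 fold change. CPM use TMM-scaled library sizes, log2 differences between single libraries a prior count of 2, and the SE is the log2 fold change over the root of the F statistic. The design was PTS + RS against RS, RGFP109 against NaCl, and amygdala-labelled against cortex-labelled libraries with treatment as a term. DESeq2 (1.42.0), limma (3.58.1) on log2(FPKM + 1) and log2(FPKM + 0.1), RLE factors, library totals, no filter, a replicate block and leaving out each library were the alternatives. The code was tested on simulated counts. In the RGFP109 and NaCl groups the replicate number is the labelled tissue, and deviations of same-numbered libraries correlated at 0.299 across genes.

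Depth was 15902013 to 21712033 counts per library, and replicates differed by more than sampling noise (chi-square per gene 4.87 to 82.7), with correlations of log CPM of 0.943 to 0.990. Promoter stretches came from RefSeq (GRCm38.p6), overlaps from GENCODE release M21, and figures were drawn with matplotlib (3.10.9). The genes and lists were chosen with earlier results of these data known. All 10 genes are named in every comparison; of the further deep-layer list, genes at an adjusted p under 0.05 are named, and those at its extremes were named after their values were seen. Of the other lists counts, medians, sums and genes of high mean CPM are given. The marker list of thalamus (79.5 to 113 CPM summed), that of the amygdala (88.8 to 178), those of astrocytes (3518 to 7778) and oligodendrocytes (3108 to 7464) served as further checks of tissue.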

Additional observations from a re-analysis of the deposited data

Results flagged for a closer look

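In 5 of the 10 deep-layer genes RGFP109 over NaCl had opposite signs in the cortex-labelled and the amygdala-labelled pair of libraries, a share of 50% beside 51.4% of all genes tested. On the log2 scale the values were -3.15 and 0.43 for Foxp2, 3.63 and -0.21 for Fezf2, -0.18 and 0.15 for Cplx3, 0.90 and -0.20 for Ntsr1, and -0.32 and 0.27 for Etv1. Each value is 1 library over 1 library, and the difference between the pairs was not tested.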

How the results depend on the processing

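Pcp4 stayed past the threshold and lower in PTS + RS under every alternative run, with log2 fold changes from -2.46 to -1.91, and 1 of the 10 genes was called in each. The number of all genes called in PTS + RS against RS moved more: 604 higher and 155 lower without the filter, 35 lower with DESeq2, 184 higher with limma on log2(FPKM + 1), 25 lower with log2(FPKM + 0.1), 32 lower with the replicate block, and 308 to 626 higher and 15 to 192 lower with a library left out. With only 2 pairs the replicate numbers were not taken as pairing these samples (correlation of deviations 0.0352), and the block changed no call of the 10 genes. Foxp2 turned sign to -0.0027 with log2(FPKM + 0.1) and -0.0013 with the block. With a library left out the ranges that crossed 0 were -0.83 to 0.59 for Foxp2, -0.48 to 0.070 for Bcl11b, -0.14 to 0.22 for Tbr1, -0.22 to 0.36 for Nxph4, -0.46 to 0.69 for Ntsr1, -0.11 to 0.12 for Fezf2 and -0.69 to 0.41 for Cplx3. Pou3f1 ranged from -1.12 to -0.61 and was not called at an adjusted p under 0.05 without RS replicate 2 or by limma.

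For RGFP109 against NaCl, Cplx3 turned to -0.024 with library totals, -0.00025 and -0.0058 with limma at the larger and the smaller pseudocount and -0.014 with the replicate block, which left 0 genes called. With a library left out, 0 to 15 genes were called higher and 0 to 78 lower, and the ranges were -3.29 to 0.50 for Foxp2, -0.15 to 0.40 for Bcl11b, -0.31 to 1.20 for Tbr1, -0.43 to 0.36 for Cplx3, -0.53 to 0.52 for Etv1 and -0.20 to 0.92 for Ntsr1. The non-zero counts came without NaCl replicate 2.

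For amygdala against cortex, 154 higher and 53 lower were called by DESeq2, 187 and 53 without the filter, each with Tbr1 among them (1 of the 10 genes), and 3 higher by limma on log2(FPKM + 1). With a library and the treatment term left out the counts were 0 to 1396 higher, 0 to 1116 lower and 0 to 4 of the 10 genes, the highest without RGFP109 replicate 1 and the next, 744 and 397, without NaCl replicate 1. Tle4 ranged from -0.12 to 0.22, Fezf2 from -0.44 to 3.22 and Nxph4 from -2.11 to 1.14. The causes were not tested. Counts under 60 in single libraries limit the precision of Foxp2, Nxph4, Pcp4, Cplx3 and Ntsr1.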
